A study of Mus musculus with 10 samples.

Results

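The acyl-CoA thioesterases encoded by the Acot genes were followed in liver RNA of male C57BL/6 mice in which Pparg had been deleted in the liver. The family was taken as the rows of the deposited expression table whose symbol equals Acot1, Acot2, Acot3, Acot4, Acot5, Acot6, Acot8, Acot9, Acot12 or Acot13, which gave 10 genes of 16874 in all. DEHP, a plasticizer of the phthalate class, had been given by gavage at 2500 mg per kg body weight to the mice of 5 libraries, and 0.5% CMC to those of the other 5. Both groups carry the liver-specific Pparg knockout, and mice without it are not analysed here. The labels give 12 mice per group and a body weight but no age, treatment length, Cre driver or carrier for DEHP. They do not tie a library to a mouse, so the p-values measure the spread between these libraries.

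Acyl-CoA thioesterases split a fatty acyl-CoA into the free fatty acid and coenzyme A. The reaction runs against that of the acyl-CoA synthetases, and it sets how much acyl-CoA and free coenzyme A a compartment holds. Members sit in the cytosol, the mitochondria and the peroxisomes, so the same reaction is carried out beside different oxidation pathways. In the livers of rodents several Acot genes are known as targets of PPARα, the nuclear receptor for fatty acids that peroxisome proliferators activate.

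Expression was given as FPKM, in which fragments are normalised for transcript length and for library size, so levels can be set side by side between genes. Summed FPKM was 688410 to 747577 per DEHP library, against 696318 to 724127 per CMC library, and the total depth behind the values is unknown. Pparg itself was 7.81, 5.50, 9.40, 7.79 and 7.04 FPKM in DEHP libraries 1 to 5, against 2.40, 4.56, 4.14, 2.72 and 5.90 FPKM in CMC libraries 1 to 5. One FPKM value over the whole gene does not show whether an exon was deleted, so Pparg does not check the genotype label. In a principal component analysis, DEHP library 5 stood apart on the third component and CMC library 2 on the second. Summed hepatocyte markers were at 50370 to 59410 FPKM in DEHP against 67320 to 82380 FPKM in CMC, without overlap. Of the 11 hepatocyte markers tested, 6 were called lower and 1 higher, where 2.40% of all tested genes were called lower and 9.12% higher. Those called in either direction were Alb, Ttr, Apoa1, Apoc3, Fga, Ahsg and Cyp2e1. In bulk tissue fewer cells of a type, less RNA per cell and lower levels of these genes alone cannot be told apart. No Kupffer cell marker of 10 tested was called, and the summed Kupffer level was 233.9 to 284.6 FPKM in DEHP against 185.2 to 260.1 FPKM in CMC. Summed endothelial markers were at 67.6 to 99.6 FPKM in DEHP against 72.0 to 96.7 FPKM in CMC, and stellate markers at 44.2 to 70.6 FPKM in DEHP against 59.7 to 75.8 FPKM in CMC. Among red cell markers Alas2 was called lower, with the summed level at 1060 to 1723 FPKM in DEHP against 1227 to 2432 FPKM in CMC. Among pancreatic acinar markers Cela1 was called lower, with the summed level at 26.8 to 41.6 FPKM in DEHP against 29.9 to 79.3 FPKM in CMC. The part of these marker levels in the results on the thioesterases was not tested.

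Of the 10 thioesterase genes, 5 were called higher in DEHP livers than in CMC livers. These were Acot1, Acot2, Acot4, Acot8 and Acot12, which stand for the cytosol, the mitochondrion and the peroxisome. Mean FPKM was 8.03-fold higher for Acot2, 4.94-fold for Acot1, 2.09-fold for Acot8, 1.79-fold for Acot4 and 1.32-fold for Acot12. Calls come from limma on log2(FPKM + 0.5) with Benjamini-Hochberg adjustment at an adjusted p of 0.05, over the 11242 genes that reached 0.5 FPKM in 5 or more libraries. On that scale the fold change of a low gene is understated. Acot5 and Acot6 did not reach the filter, so 8 members were tested, and 5 of those 8 (62.5%) were called higher, where 9.12% of all tested genes were called higher. A higher call with a log2 fold change of at least 1 was made for 3 members and for 1.25% of all tested genes. None of the 8 was called lower, where 2.40% of tested genes were. The median log2 fold change was 0.89 over the 8 members and 0.06 over all tested genes.

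In each of the 5 called members every DEHP library lay above every CMC library, a pattern shown by 8.56% of all tested genes. Acot3, Acot9 and Acot13 had overlapping groups and were not called. Of all calls, 79.2% were in the higher direction, with 1025 genes higher and 270 lower. That split depends on scaling, at 59.6% with median-of-ratios scaling (647 higher, 438 lower) and 52.8% with quantile normalization (611 higher, 546 lower). Under both scalings the same count of 5 members was called higher and 0 lower.

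**Figure D1:**
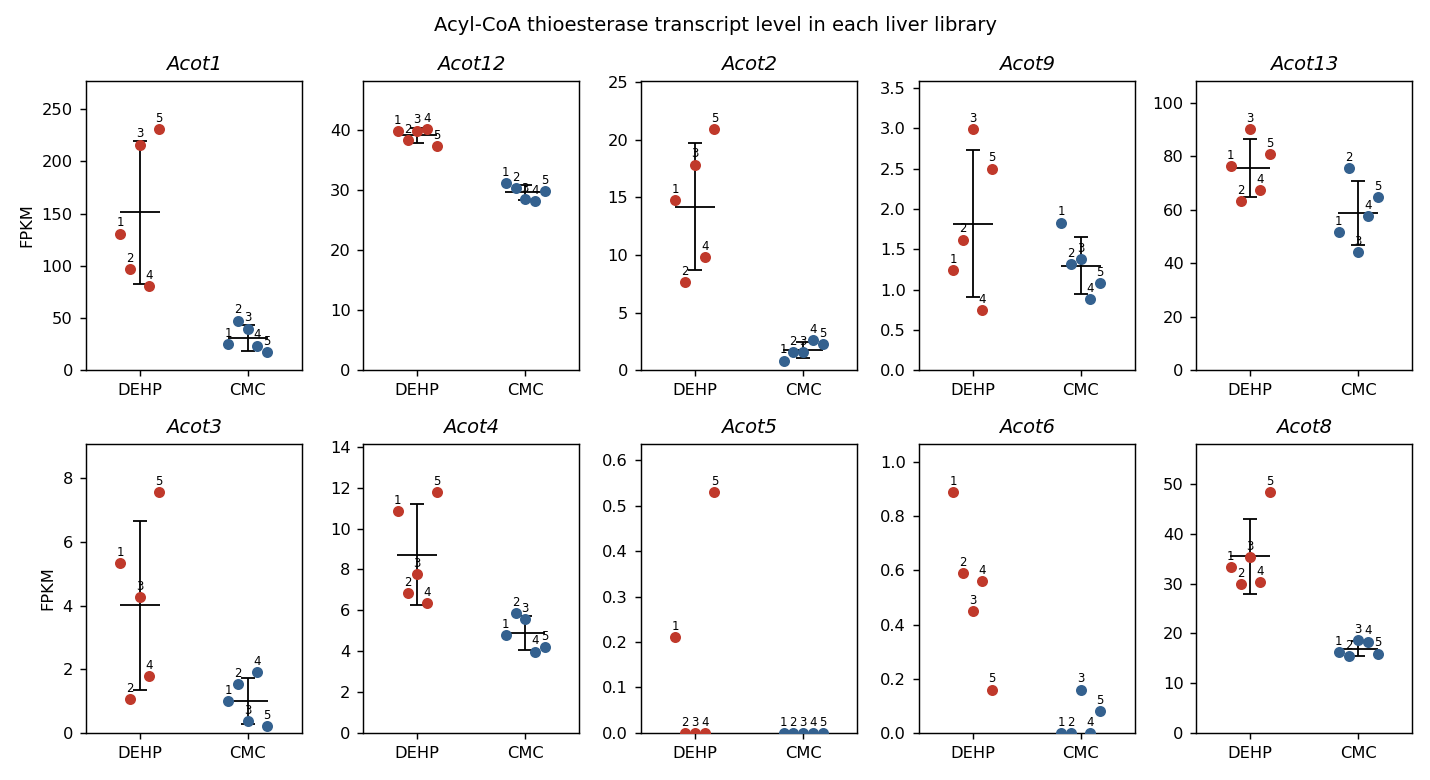
FPKM of the 10 Acot genes in each library, with a vertical axis of its own for each gene. DEHP libraries stand left of CMC libraries, points carry the library number, and bars give mean ± SD of 5 libraries except for Acot5 and Acot6. The groups of Acot1, Acot2, Acot4, Acot8 and Acot12 do not overlap.

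The cytosolic members were Acot1, which hydrolyses long-chain acyl-CoA, and Acot12, which hydrolyses acetyl-CoA. Acot1 (gene ID 26897, chr12:84009502-84017670, plus strand, GRCm38.p6) had 130.9, 97.2, 216.2, 80.8 and 230.9 FPKM in DEHP libraries 1 to 5, against 25.4, 47.5, 39.8, 23.5 and 17.0 FPKM in CMC libraries 1 to 5. The lowest DEHP library, library 4, was above the highest CMC library, library 2. The means were 151.2 ± 68.7 FPKM in DEHP and 30.6 ± 12.6 FPKM in CMC (SD, n = 5 each), and the log2 fold change was 2.26 (SE 0.38, limma adjusted p = 0.00602). This was the 32nd highest log2 fold change of all tested genes. Within each group the libraries were far apart, since the highest was 2.86 times the lowest in DEHP and 2.80 times in CMC.

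Acot12 (gene ID 74156, chr13:91741326-91786148) moved least of the called members and was the most even between libraries. It had 39.8, 38.3, 39.9, 40.1 and 37.3 FPKM in DEHP libraries 1 to 5, against 31.1, 30.4, 28.5, 28.1 and 29.9 FPKM in CMC libraries 1 to 5. The groups did not overlap, and the coefficient of variation was 3.18% in DEHP and 4.26% in CMC, where Acot1 had 45.4% in DEHP and 41.1% in CMC. The log2 fold change was 0.40 (SE 0.07, limma adjusted p = 0.00186). Acot12 therefore had a smaller adjusted p than Acot1, with a smaller difference.

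The mitochondrial members were Acot2, Acot9 and Acot13, and of these Acot2 was called. Acot2 hydrolyses long-chain acyl-CoA in the mitochondrial matrix. Acot2 (gene ID 171210, chr12:83987861-83993877) had 14.7, 7.65, 17.8, 9.83 and 20.9 FPKM in DEHP libraries 1 to 5, against 0.84, 1.60, 1.57, 2.60 and 2.23 FPKM in CMC libraries 1 to 5. All 5 DEHP libraries were well above the CMC libraries, and the log2 fold change of 2.66 (SE 0.29, limma adjusted p = 0.000129) was the largest among the tested members and the 24th highest of all tested genes. In rank of mean level among tested genes, Acot2 was at the 68.8th percentile in DEHP and the 21.5th in CMC.

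Acot13, also named Them2, is a small thioesterase of the hotdog fold that associates with mitochondria and binds the lipid transfer protein Pctp. Acot13 (gene ID 66834, chr13:24817955-24831489) had 76.3, 63.4, 90.2, 67.3 and 81.0 FPKM in DEHP libraries 1 to 5, against 51.7, 75.5, 44.3, 57.7 and 64.7 FPKM in CMC libraries 1 to 5. CMC libraries 2 and 5 lay within the range of the DEHP libraries. The log2 fold change was 0.37 (95% interval 0.08 to 0.66, limma adjusted p = 0.0971), and without CMC library 2 it was 0.47 with an adjusted p of 0.0252. Acot9, another mitochondrial thioesterase (gene ID 56360, chrX:155262443-155297654), was low in both groups. It had 1.24, 1.62, 2.99, 0.75 and 2.50 FPKM in DEHP libraries 1 to 5, against 1.83, 1.32, 1.38, 0.88 and 1.08 FPKM in CMC libraries 1 to 5. The groups overlapped, and the 95% interval of the log2 fold change ran from -0.25 to 0.84 (limma adjusted p = 0.518).

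Acot8, Acot4, Acot3, Acot5 and Acot6 are peroxisomal in the mouse, and Acot8 and Acot4 were called. Acot8 has a broad range of substrates that includes bile acid-CoA esters. Acot8 (gene ID 170789, chr2:164792768-164820219) had 33.4, 29.9, 35.3, 30.4 and 48.5 FPKM in DEHP libraries 1 to 5, against 16.3, 15.5, 18.7, 18.4 and 16.0 FPKM in CMC libraries 1 to 5. The groups were clearly apart, with DEHP library 5 the highest, and the log2 fold change of 1.03 (SE 0.12, limma adjusted p = 0.000118) had the smallest adjusted p of the 8 tested members. Acot4 acts on succinyl-CoA in the mouse. Acot4 (gene ID 171282, chr12:84037254-84044723) had 10.9, 6.85, 7.78, 6.35 and 11.8 FPKM in DEHP libraries 1 to 5, against 4.80, 5.86, 5.56, 3.98 and 4.21 FPKM in CMC libraries 1 to 5. The groups came close, since DEHP library 4 was at 6.35 FPKM and CMC library 2 at 5.86 FPKM, and the log2 fold change was 0.75 (SE 0.17, limma adjusted p = 0.0106).

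Acot3 hydrolyses long-chain acyl-CoA in mouse peroxisomes. Acot3 (gene ID 171281, chr12:84052144-84060400) had 5.34, 1.07, 4.26, 1.78 and 7.57 FPKM in DEHP libraries 1 to 5, against 1.00, 1.54, 0.38, 1.90 and 0.22 FPKM in CMC libraries 1 to 5. DEHP libraries 2 and 4 were within the CMC range, and DEHP libraries 1, 3 and 5 were above it. The log2 fold change was 1.49 (95% interval 0.38 to 2.59, limma adjusted p = 0.0890), and without DEHP library 2 it was 1.81 with an adjusted p of 0.0260. The log2 fold change of Acot3 was thus larger than those of Acot8, Acot4 and Acot12, which were called. The spread of Acot3 was larger too, with a coefficient of variation of 66.2% in DEHP and 71.8% in CMC.

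Acot6, which acts on branched-chain acyl-CoA such as phytanoyl-CoA in the mouse, and Acot5, which acts on medium-chain acyl-CoA in the mouse, were close to or at 0. Acot6 (gene ID 217700, chr12:84100654-84109783) had 0.89, 0.59, 0.45, 0.56 and 0.16 FPKM in DEHP libraries 1 to 5, against 0, 0, 0.16, 0 and 0.08 FPKM in CMC libraries 1 to 5. DEHP library 5, the highest library for Acot1, Acot2, Acot3, Acot4 and Acot8, was the lowest of its group here and level with CMC library 3. Acot6 entered the test only with no filter on low values, where its log2 fold change was 0.88 (SE 0.18, limma adjusted p = 0.0103). Acot5 (gene ID 217698, chr12:84069077-84076024) had 0.21 FPKM in DEHP library 1 and 0.53 FPKM in DEHP library 5, and is listed at 0 in the other DEHP libraries and in all 5 CMC libraries.

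**Figure D2:**
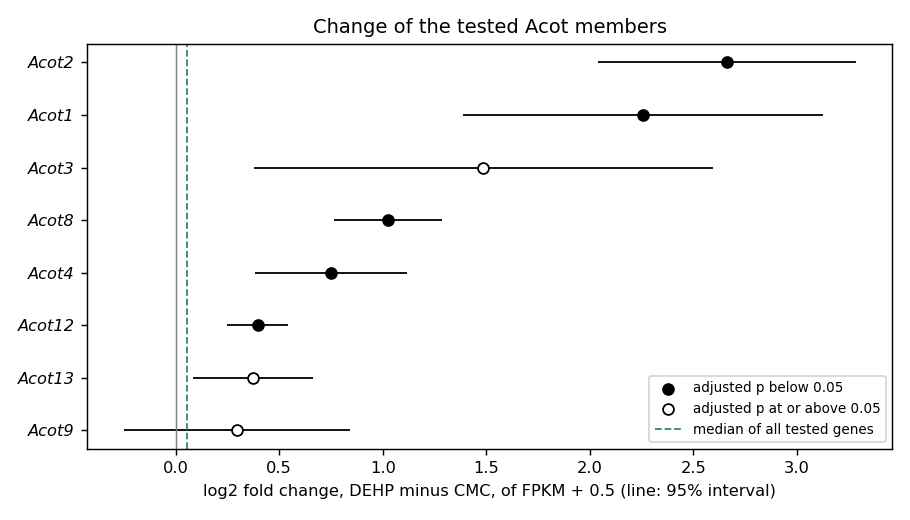
Log2 fold change, DEHP minus CMC, of the 8 tested Acot genes on the log2(FPKM + 0.5) scale, with 95% intervals from limma. Filled points had an adjusted p under 0.05, and the dashed line is the median of all tested genes, 0.06. Points run from 0.29 for Acot9 to 2.66 for Acot2, and the interval of Acot9 crosses 0.

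The summed level of the family was 313.7, 246.5, 414.9, 237.8 and 441.0 FPKM in DEHP libraries 1 to 5, against 132.9, 179.1, 140.3, 137.0 and 135.4 FPKM in CMC libraries 1 to 5. The groups did not overlap, and the mean was 330.8 ± 93.9 FPKM in DEHP and 145.0 ± 19.3 FPKM in CMC (SD, n = 5 each), 2.28 times as much in DEHP. Acot1 alone made up 64.9% of the difference between these means. Its share of the family was 43.9 ± 8.1% in DEHP and 20.7 ± 6.6% in CMC. Acot13, the most abundant member in CMC, had a share of 23.7 ± 3.8% in DEHP and 40.5 ± 6.0% in CMC.

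By compartment, the cytosolic Acot1 and Acot12 summed to 190.3 ± 68.2 FPKM in DEHP and 60.2 ± 12.7 FPKM in CMC. The 5 peroxisomal members summed to 48.9 ± 12.2 FPKM in DEHP and 22.9 ± 1.7 FPKM in CMC, so the peroxisomal share of the family was 15.1 ± 2.0% in DEHP and 16.0 ± 2.1% in CMC, with overlapping groups. The mitochondrial members summed to 91.7 ± 16.5 FPKM in DEHP and 61.9 ± 12.1 FPKM in CMC, and the groups of this sum overlapped. The mitochondrial share of the family was 28.41 ± 3.39% in DEHP and 42.65 ± 6.07% in CMC, without overlap. In CMC nearly all of the mitochondrial sum was Acot13, at a mean of 58.8 FPKM beside 1.77 FPKM of Acot2.

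**Figure D3:**
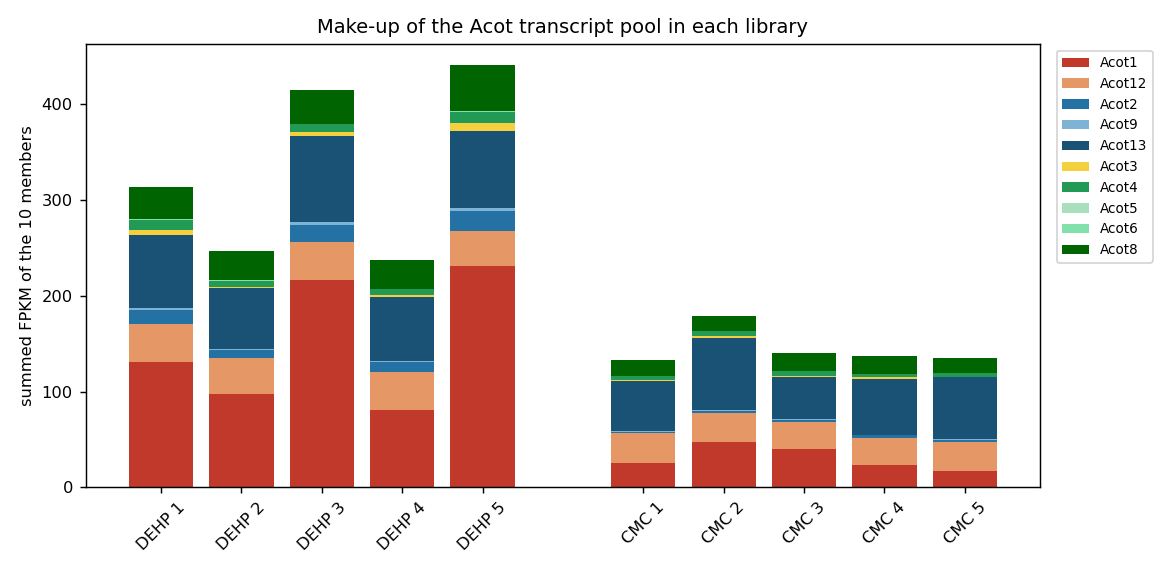
Summed FPKM of the Acot family in each library, stacked by gene, with DEHP libraries 1 to 5 left of CMC libraries 1 to 5. The DEHP totals run from 237.8 to 441.0 FPKM, and the CMC totals run from 132.9 to 179.1 FPKM.

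The order of levels differed between the groups at its top. In DEHP the order of means was Acot1, Acot13, Acot12, Acot8, Acot2, Acot4, Acot3, Acot9, Acot6 and Acot5. In CMC it was Acot13, Acot1, Acot12, Acot8, Acot4, Acot2, Acot9, Acot3, Acot6 and Acot5. Acot1 was above Acot13 in 5 of 5 DEHP libraries, and Acot13 was above Acot1 in 5 of 5 CMC libraries. The ratio of Acot1 to Acot13 was 1.72, 1.53, 2.40, 1.20 and 2.85 in DEHP libraries 1 to 5, against 0.49, 0.63, 0.90, 0.41 and 0.26 in CMC libraries 1 to 5. Likewise Acot2 was above Acot4 in 5 of 5 DEHP libraries and below it in 5 of 5 CMC libraries.

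Not every pair of neighbours in these orders was separated by its spread. In DEHP the ranges of 5 libraries overlapped between each pair of neighbours except Acot13 with Acot12 and Acot8 with Acot2. In CMC the ranges overlapped between Acot13 and Acot1, Acot1 and Acot12, Acot2 and Acot9, Acot9 and Acot3, and Acot6 and Acot5. Acot12 was above Acot8 in 4 of 5 DEHP libraries with overlapping ranges, whereas in CMC it was above Acot8 in 5 of 5 with ranges apart.

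Within the DEHP group several members were high or low in the same libraries. DEHP library 5 had the highest level of Acot1, Acot2, Acot3, Acot4 and Acot8, and DEHP libraries 2 and 4 had the lowest levels of these 5 genes and of Acot13. The log2 deviation of DEHP library 5 from its group mean was 0.73 for Acot1, 0.63 for Acot2, 1.08 for Acot3, 0.45 for Acot4 and 0.47 for Acot8, but -0.07 for Acot12. In the CMC group the highest library differed between members, since it was library 2 for Acot1, Acot4 and Acot13, and library 4 for Acot2 and Acot3. Acot1 and Acot4 had a similar order there, with libraries 2, 3 and 1 at the top in falling order. DEHP library 5 is also the one that stood apart on the third principal component of all genes, and without it and CMC library 2 the same count of 5 members was called higher.

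**Figure D4:**
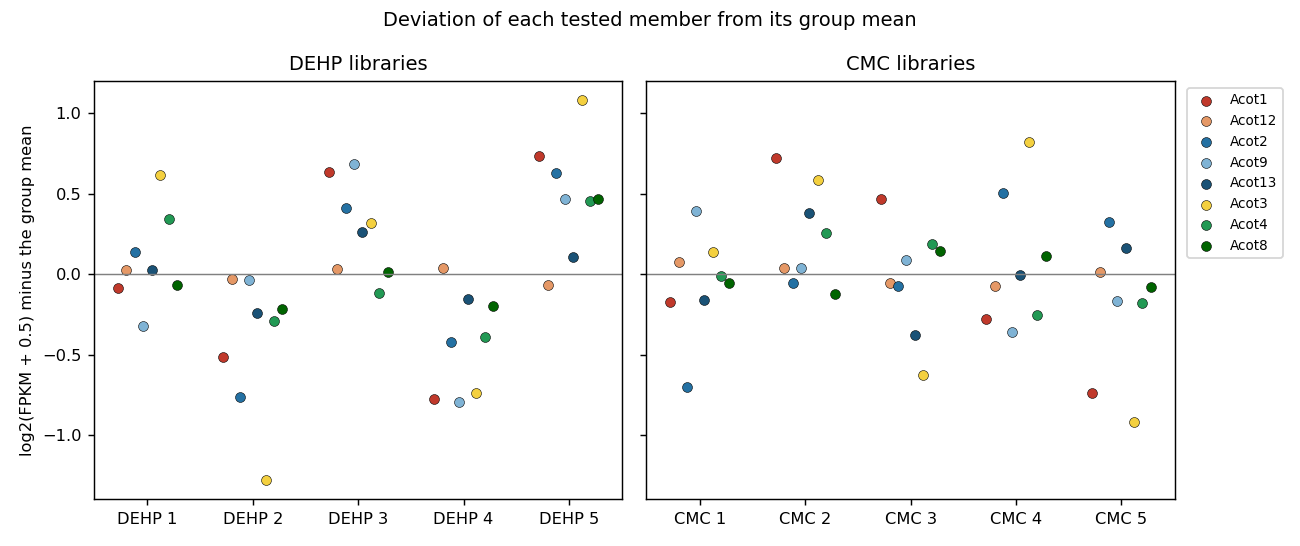
Log2 deviation of each of the 8 tested Acot genes from its group mean in each library, DEHP libraries left of CMC libraries. In DEHP library 5 the deviations of Acot1, Acot2, Acot3, Acot4 and Acot8 lie between 0.45 and 1.08, and Acot12 lies at -0.07.

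Acot1 to Acot6 arose by duplication and are alike in sequence, and the sources used here do not say how reads common to copies were assigned. Of the stretches of 50 bases in the transcripts of Acot1, 33.6% also occur in another gene, mostly Acot2. For Acot2 the share was 27.7%, for Acot5 22.8%, for Acot3 19.5%, for Acot6 6.71% and for Acot4 4.87%. Acot3 shared most with Gm49366, at 11.2% of its stretches, a gene that is not among the members or in the sums below. The longest run identical between Acot1 and Acot2 was 273 bases, so their separate values are uncertain. Acot9 shared 20.2%, with Acot10, whereas Acot8, Acot12 and Acot13 shared no stretch of that length with another gene.

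Sums over the copies depend less on how reads are divided between the copies within a sum than single values do. Identical runs also cross from one sum below to the other. They measured 203 bases between Acot1 and Acot3, 159 between Acot1 and Acot5 and 138 between Acot1 and Acot6. Reads common to these genes could thus count in either sum, which was not tested. Acot1 and Acot2 together had 145.7, 104.8, 234.1, 90.6 and 251.8 FPKM in DEHP libraries 1 to 5, against 26.2, 49.1, 41.4, 26.1 and 19.2 FPKM in CMC libraries 1 to 5. The groups of this sum did not overlap, and the mean was 5.11 times as high in DEHP. Acot3 to Acot6 together had 17.3, 8.51, 12.5, 8.69 and 20.1 FPKM in DEHP libraries 1 to 5, against 5.80, 7.40, 6.10, 5.88 and 4.51 FPKM in CMC libraries 1 to 5, also without overlap and 2.26 times as high in the mean. The ratio of Acot1 to Acot2 was 8.88, 12.7, 12.1, 8.22 and 11.1 in DEHP libraries 1 to 5, against 30.2, 29.7, 25.3, 9.03 and 7.61 in CMC libraries 1 to 5. In this ratio CMC library 4 lay within the range of the DEHP libraries, CMC library 5 below it, and CMC libraries 1, 2 and 3 above it.

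Acot2, Acot1, Acot4, Acot3, Acot5 and Acot6 lie next to each other on mouse chromosome 12, in this order, within 121.9 kb (chr12:83987861-84109783, GRCm38.p6). The 3 called members of this row, Acot2, Acot1 and Acot4, are the first 3 in that order, but the fold changes did not follow it. Acot3 was not called at a log2 fold change of 1.49, which is above the 0.75 of Acot4. Acot5 and Acot6 were not tested, and Acot6, the last in the row, was called with no filter on low values. The 6 genes summed to 178.8 ± 77.6 FPKM in DEHP and 38.3 ± 13.3 FPKM in CMC, and the 4 members elsewhere in the genome to 152.0 ± 16.6 FPKM in DEHP and 106.6 ± 11.3 FPKM in CMC. The share of the row in the family was 52.2 ± 8.5% in DEHP and 26.1 ± 6.6% in CMC.

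Only 3 genes beside the row could be tested. Within 0.2 Mb of the row the table held 5 other genes, of which 3 were tested and 0 called. Of all tested genes 11.5% were called in either direction, and 0 of 3 is too few to differ from that share. Numb, a regulator of Notch signalling, had a mean of 9.13 FPKM in DEHP and 9.17 FPKM in CMC, with a log2 fold change of 0.00 (SE 0.10, limma adjusted p = 0.998). Riox1, a ribosomal oxygenase, had a mean of 3.93 FPKM in DEHP and 3.53 FPKM in CMC (limma adjusted p = 0.625). Elmsan1 had 1.18 FPKM in DEHP and 1.11 FPKM in CMC (limma adjusted p = 0.920).

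**Figure D5:**
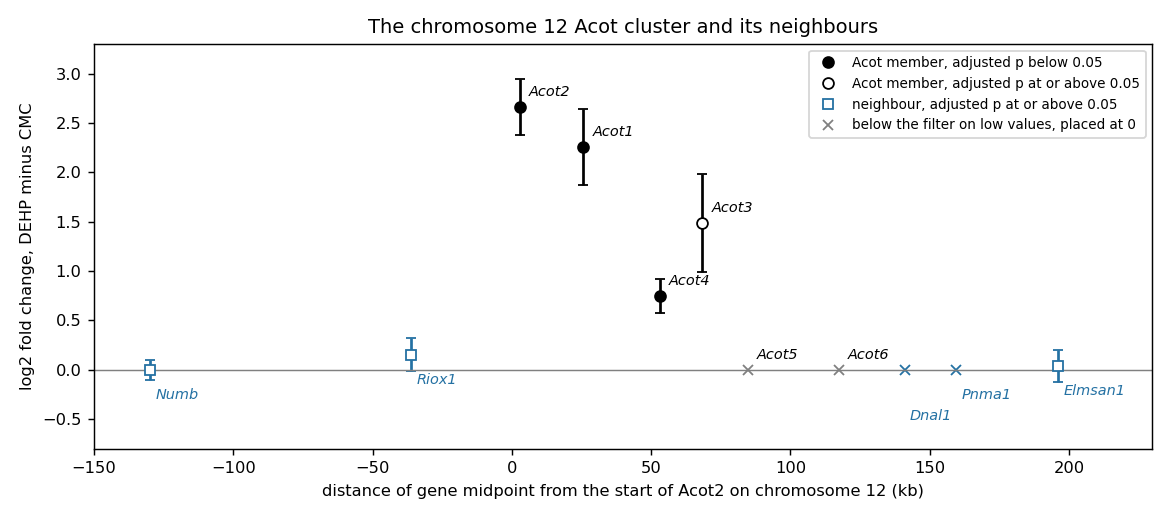
Log2 fold change, DEHP minus CMC, against the distance of each gene from the start of Acot2 in kb, for the 6 Acot genes of chromosome 12 and their neighbours, with SE. Crosses are genes under the filter, placed at 0 and not estimated. Acot2 and Acot1 lie at 2.66 and 2.26, and Numb lies at 0.00.

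PPARα binds DNA with its partner RXR at a direct repeat of AGGTCA with 1 base between the copies, and the bases before the start sites of the 5 called members are shown for that reason. Windows of 250 bases before to 50 bases after a start site were given by RefSeq (GRCm38.p6) for 8 of the 10 members, all but Acot6 and Acot13. The 250 bases before the start are printed 5′ to 3′ on the strand of the gene, and capitals mark AGGTCA or GGNCANAGGTCA on either strand. They lie at chr12:84009252-84009501 (plus strand) for Acot1, chr12:83987611-83987860 (plus strand) for Acot2, chr12:84038129-84038378 (plus strand) for Acot4, chr2:164804882-164805131 (minus strand) for Acot8 and chr13:91741271-91741520 (plus strand) for Acot12. For Acot1 and Acot2 these bases end where the gene span given above begins. Those of Acot4 and Acot8, and most of those of Acot12, lie inside the gene span, so their start sites are not the outer ends of these genes.
Acot1: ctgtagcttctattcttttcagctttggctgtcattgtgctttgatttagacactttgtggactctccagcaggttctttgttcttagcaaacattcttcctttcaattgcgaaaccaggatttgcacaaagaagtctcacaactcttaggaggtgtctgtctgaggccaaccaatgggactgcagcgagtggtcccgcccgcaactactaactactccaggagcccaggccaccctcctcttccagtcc
Acot2: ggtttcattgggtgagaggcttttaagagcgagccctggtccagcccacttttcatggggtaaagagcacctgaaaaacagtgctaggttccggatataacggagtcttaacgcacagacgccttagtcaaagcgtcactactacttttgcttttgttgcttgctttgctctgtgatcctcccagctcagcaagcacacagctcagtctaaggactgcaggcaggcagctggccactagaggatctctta
Acot4: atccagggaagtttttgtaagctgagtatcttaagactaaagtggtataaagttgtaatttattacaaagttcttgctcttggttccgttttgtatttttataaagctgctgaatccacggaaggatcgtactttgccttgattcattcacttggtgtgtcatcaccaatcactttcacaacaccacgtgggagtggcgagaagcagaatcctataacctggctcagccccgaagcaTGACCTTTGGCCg
Acot8: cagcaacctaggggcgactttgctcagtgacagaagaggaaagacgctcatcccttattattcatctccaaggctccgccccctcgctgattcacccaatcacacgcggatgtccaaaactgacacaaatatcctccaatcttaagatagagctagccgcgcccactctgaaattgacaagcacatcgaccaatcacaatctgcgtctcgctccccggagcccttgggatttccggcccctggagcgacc
Acot12: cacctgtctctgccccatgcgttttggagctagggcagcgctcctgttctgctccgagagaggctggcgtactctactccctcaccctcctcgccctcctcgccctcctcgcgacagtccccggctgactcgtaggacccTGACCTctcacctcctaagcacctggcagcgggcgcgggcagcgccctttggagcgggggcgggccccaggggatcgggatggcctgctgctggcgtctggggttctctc

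Only the Acot4 window held a degenerate form of the repeat. GGNCANAGGTCA, in which N is any base, was found there on the reverse strand from position -13 to -2 relative to the start, where the printed strand reads TGACCTTTGGCC. On either strand it was in 0.207% of the 32851 RefSeq windows of 27025 genes. The stricter AGGTCANAGGTCA was in 0 of the 8 members and in 0.0396% of all windows. The single AGGTCA, which both repeats contain, was in 4 of the 8 members and in 16.3% of all windows. Of the called members it was in Acot4 and in Acot12, at position -110 to -105 relative to the start, and not in Acot1, Acot2 or Acot8. CCAAT was in 7 of the 8 members and 37.4% of all windows, and TATAAA was in 2 of the 8 and 13.6%. A match is a string of letters and not a site shown to be bound. These windows say nothing of sequence farther away, nor of that before the outer ends of Acot4, Acot8 and Acot12. The part of these matches in the fold changes was not tested.

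Genes around the thioesterase reaction were read from the same fit, in which 9.12% of all tested genes were called higher and 2.40% lower. The acyl-CoA synthetases, which make the substrate, had 10 of 15 tested genes higher and 0 lower, with a median log2 fold change of 0.50, and 8 higher with median-of-ratios scaling, quantile scaling or the circadian covariate. Slc27a1, a fatty acid transport protein with synthetase activity, averaged 20.9 ± 4.8 FPKM in DEHP and 2.05 ± 0.44 FPKM in CMC, a log2 fold change of 3.05 (limma adjusted p = 6.75e-08). Acss3, which activates short-chain acids, averaged 4.82 ± 1.69 FPKM in DEHP and 1.27 ± 0.37 FPKM in CMC (log2 1.56). Acsf2 and Acsf3, synthetases of medium-chain acids and of malonate, had log2 fold changes of 0.88 and 0.87.

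Thioesterases and related hydrolases outside the 10 members had 4 of 11 tested genes higher and 0 lower, with a median log2 fold change of 0.18. Acot7, a cytosolic long-chain thioesterase known mainly from brain, averaged 25.5 ± 3.6 FPKM in DEHP and 17.8 ± 1.0 FPKM in CMC (log2 0.50, limma adjusted p = 0.00625). Them7 averaged 21.1 ± 1.0 FPKM in DEHP and 10.3 ± 3.2 FPKM in CMC, with a log2 fold change of 1.06. Them6 had a log2 fold change of 0.89, and Hibch, the hydroxyisobutyryl-CoA hydrolase of valine breakdown, had one of 0.56. Baat, which joins bile acids from their CoA esters to amino acids, was not called, at 108.6 FPKM in DEHP and 118.8 FPKM in CMC (limma adjusted p = 0.307).

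Proteins that bind fatty acids or acyl-CoA had 6 of 11 tested genes higher and 0 lower, with a median log2 fold change of 0.37, and 4 higher with either median-of-ratios or quantile scaling. Pctp, the partner of Acot13, averaged 62.6 ± 10.3 FPKM in DEHP and 28.9 ± 4.5 FPKM in CMC, with a log2 fold change of 1.10 (limma adjusted p = 0.000129). Fabp1, the liver fatty acid binding protein, averaged 14360 ± 1595 FPKM in DEHP and 6556 ± 1139 FPKM in CMC (log2 1.14), and Fabp2 had a log2 fold change of 0.93. Dbi, the acyl-CoA binding protein, averaged 2041 ± 268 FPKM in DEHP and 1264 ± 103 FPKM in CMC (log2 0.69).

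Coenzyme A, the other product of the reaction, had 4 of 13 tested genes of its synthesis and breakdown higher and 0 lower, with a median log2 fold change of 0.16. Coasy, the last enzyme of coenzyme A synthesis, averaged 96.5 ± 6.0 FPKM in DEHP and 65.9 ± 4.9 FPKM in CMC (log2 0.55), and Ppcs, an earlier enzyme, had a log2 fold change of 0.43. Vnn1, a pantetheinase, averaged 48.3 ± 9.9 FPKM in DEHP and 4.04 ± 3.26 FPKM in CMC (log2 3.63, limma adjusted p = 0.000284), and Vnn3 had a log2 fold change of 0.80.

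Many oxidation genes of both organelles that hold thioesterases, listed with transport and import genes, were higher. Of the peroxisomal genes 12 of 21 tested were higher and 0 lower, with a median log2 fold change of 0.61. The count was 11 with median-of-ratios scaling or the circadian covariate and 10 with quantile scaling. It was 13 without CMC library 2 and DEHP library 5. Among the peroxisomal genes Ehhadh, a bifunctional enzyme of peroxisomal β-oxidation, averaged 1606 ± 497 FPKM in DEHP and 84.6 ± 20.9 FPKM in CMC (log2 4.21). Acaa1b, a peroxisomal thiolase, had a log2 fold change of 2.84, and Ech1, an auxiliary isomerase, had one of 1.21. Acot8 at 1.03 and Acot4 at 0.75 were below these 3 genes and above the median of the peroxisomal list.

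Of the mitochondrial genes 15 of 18 tested were higher and 0 lower, with a median log2 fold change of 0.73. The count was 14 with median-of-ratios scaling, quantile scaling or the circadian covariate. Ucp2, an uncoupling protein, averaged 100.5 ± 22.8 FPKM in DEHP and 16.9 ± 1.4 FPKM in CMC (log2 2.52, limma adjusted p = 5.44e-08). Eci1, Decr1 and Acadm, enzymes of mitochondrial β-oxidation, had log2 fold changes of 1.42, 1.08 and 1.05.

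A list of nuclear receptors of liver lipid metabolism and the coactivators Ppargc1a and Ppargc1b had 2 of 12 tested genes higher and 0 lower, with a median log2 fold change of 0.07. Pparg averaged 7.51 ± 1.41 FPKM in DEHP and 3.94 ± 1.43 FPKM in CMC (log2 0.89, limma adjusted p = 0.0118), and with the circadian component as a covariate its log2 fold change was 0.87 (limma adjusted p = 0.0589). Rxrb, a partner of the PPARs, had a log2 fold change of 0.35 (limma adjusted p = 0.0416), but was not called with median-of-ratios scaling (limma adjusted p = 0.0934). Hnf4a, a hepatocyte transcription factor, was not called at a log2 fold change of -0.24 (limma adjusted p = 0.0923), but was called lower with that scaling (limma adjusted p = 0.0311). Ppara averaged 33.0 ± 2.1 FPKM in DEHP and 28.6 ± 1.7 FPKM in CMC (limma adjusted p = 0.109), and Ppard averaged 2.17 ± 0.70 FPKM in DEHP and 3.11 ± 0.95 FPKM in CMC (limma adjusted p = 0.225). Neither of these receptors was called.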

How the data were processed

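Liver RNA was measured by sequencing in 10 libraries, 5 from mice given DEHP and 5 from mice given 0.5% CMC, with libraries made with an Illumina TruSeq kit per the labels' protocols. The authors deposited 1 FPKM value per gene and library, per the file headers. Per the submitters' processing notes, Cuffdiff was among the tools, and mm10 and GRCm38 among the builds. Versions, the aligner and the strand setting are not given in these sources. FPKM is relative to the library total, so a fall of very abundant transcripts raises other values. No counts were at hand, so no count model was used, and the precision per value is unknown. The relative depth of the libraries, read from steps in low FPKM values, was 0.979 to 1.03 of their mean.

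Of 16874 rows, 16833 gene IDs matched RefSeq GRCm38.p6, which gave coordinates, and 22 symbols that had become dates were put back from the gene ID. Genes that reached 0.5 FPKM in 5 or more libraries were tested as log2(FPKM + 0.5), DEHP minus CMC. The fit used limma 3.58.1 (R 4.3.3) with trended, robust variances, Benjamini-Hochberg adjustment over 11242 genes and a threshold of 0.05. Levels are means ± SD of 5 libraries. On simulated data with 200 genes changed among 11242, the step recovered 81.2% of changes of log2 1 and 100% of log2 2. Shared stretches were counted in GENCODE M21 transcripts. Named genes are the members, the 4 of each pathway list with the smallest p, the tested neighbours, Ppara, Ppard and Pparg, and for each tested member the gene most like it over libraries. One gene that this rule takes is not reported here. Baat was named after its values were seen. The members and lists were chosen with earlier results of these data known. Alternatives were another pseudocount, filter, scaling, variance model, test, covariate and library set.

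Library summaries were compared with two-sided exact permutation tests, in which the 252 regroupings allow no p under 0.00794. The 50 most abundant genes held 42.1 ± 2.2% of FPKM in DEHP libraries and 46.9 ± 1.7% in CMC libraries (SD, n = 5 each, exact p = 0.0159, adjusted over 4 tests 0.0636). The circadian component, the first principal component of 16 clock genes, averaged 1.47 ± 1.93 in DEHP and -1.47 ± 3.11 in CMC (exact p = 0.103). Their part in the results was not tested beyond the alternatives.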

Additional observations from a re-analysis of the deposited data

How the results depend on the processing

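Over the 23 alternatives, 182 values of single tested members were computed, of which 175 kept their direction and side of the threshold, 5 lost the call, 2 gained one and 0 turned round. The 5 lost calls were those of Acot1, Acot2, Acot4, Acot8 and Acot12 under an exact permutation test per gene, where the smallest adjusted p was 0.0742, so 0 members and, over all genes, 0 higher and 0 lower were called, with 2681 genes at an unadjusted p under 0.05. Each of the 5 had the smallest p that test can give, 0.00794. Leaving out 1 library at a time gave 5 to 6 members higher and 0 lower, 735 to 1015 genes higher and 200 to 260 lower over all genes. Over the alternatives except that permutation test, the limma adjusted p was 0.00239 to 0.0357 for Acot1, 5.05e-05 to 0.00186 for Acot2, 0.00664 to 0.0313 for Acot4, 5.11e-05 to 0.0015 for Acot8 and 0.000733 to 0.0218 for Acot12. It was 0.0260 to 0.262 for Acot3, 0.198 to 0.817 for Acot9 and 0.0252 to 0.283 for Acot13. A circadian covariate left 648 genes higher and 171 lower. With median-of-ratios scaling 647 were higher and 438 lower, and with quantile normalization 611 were higher and 546 lower. With a filter at 2 FPKM, Acot3 and Acot9 were not tested, and with no filter Acot6 was the sixth member called. The cause of these changes was not tested. Samples of the same replicate number did not deviate together (r -0.0722 to 0.0489, with 0 of 5 best matched to its own number). No pairing by number was seen, though these correlations cannot exclude a weak one. The replicate block gave 816 genes higher, 229 lower and 5 members higher, with an adjusted p of 0.0357 for Acot1. Sequencing depth is unknown, so what it limits could not be given.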

Other observations

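For each tested thioesterase gene, the gene outside the family with the most similar variation between libraries was sought over the 10 libraries, after the group means had been removed from log2(FPKM + 0.5), among 10087 genes with a mean of at least 1 FPKM. These are the highest values of very many correlations over libraries that also share composition, so they are given as a description without a p. For Acot8 it was Emc9, a subunit of the membrane protein insertion complex of the endoplasmic reticulum (Pearson r 0.976, Spearman rho 0.927). For Acot2 it was Pabpc1, the cytoplasmic poly(A) binding protein (r 0.974, rho 0.964), and for Acot13 it was Dgcr6 (r 0.973, rho 0.939). For Acot9 it was Rpusd3 (r 0.966, rho 0.964), and for Acot1 it was 4930481A15Rik (r 0.965, rho 0.952). For Acot3 it was Slc27a4, a fatty acid transport protein (r 0.956, rho 0.927), for Acot12 it was Zfyve16 (r 0.953, rho 0.891) and for Acot4 it was Prlr, the prolactin receptor (r 0.944, rho 0.976). The tenth-highest r was between 0.873 and 0.926 for these 8 genes, so the leading gene stands little above others.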
